A study of Mus musculus with 4 samples.

Results

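Chromatin immunoprecipitation with sequencing (ChIP-seq) was examined at 4 genes of the TGF-beta pathway: the ligand Tgfb2, the receptor Tgfbr2, the effector Smad3 and the inhibitor Smad7. Each gene stood for a window of 400 kb of the mm9 mouse genome. The genes and windows were chosen with earlier results of these data known. The windows were chr1:188300000-188700000 for Tgfb2, chr9:115850000-116250000 for Tgfbr2, chr9:63400000-63800000 for Smad3 and chr18:75350000-75750000 for Smad7. A peak belonged to a window when its midpoint lay inside. The 4 windows held 5 of the 4130 peaks of the transcription factor p63 and 265 of the 183757 peaks of H3K27ac, the acetylation of lysine 27 of histone H3 that marks active promoters and enhancers. All 4 libraries came from primary epithelial progenitor cells of the salivary gland of p63 wild-type adult mice aged 12 weeks: a ChIP for p63 with the antibody 4A4 and one for H3K27ac, each with an input library of its own, in 4 groups of 1. How many animals the cells came from is not given in the sources used here. Each peak list set 1 ChIP library against 1 input, so no value below has a replicate, no test between libraries was made, and the depth is unknown because the lists hold positions only.

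In the TGF-beta pathway, a secreted ligand such as Tgfb2 binds the type II receptor Tgfbr2, which recruits and activates a type I receptor. The activated type I receptor phosphorylates Smad2 and Smad3, which join Smad4 and act on genes in the nucleus. Smad7 is an inhibitory Smad that blocks the type I receptor and is itself switched on by the pathway, closing a feedback loop. Activins, the ligands that follistatin captures, also signal through Smad2 and Smad3. p63, a member of the p53 family, marks basal epithelial cells, which include progenitors of the salivary gland.

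The regulatory sequence of the genes is shown as background to the windows, because the letters under the peaks were not used here: no mm9 genome was at hand. RefSeq promoters on GRCm38.p6 matched 3 of the 4 genes, Tgfb2, Tgfbr2 and Smad3. The 250 bases before each gene's start are printed 5′ to 3′ on the gene's strand, which is the minus strand for each of the 3: chr1:186705990-186706239 for Tgfb2, chr9:116175364-116175613 for Tgfbr2 and chr9:63757995-63758244 for Smad3. These positions belong to another build than the peaks and cannot be set against the peak positions below. Capitals mark matches on either strand to the SMAD box CAGAC or to the p53-family half-site (3 purines, C, 2 bases that are A or T, G, 3 pyrimidines); no matches to these motifs overlapped each other.
Tgfb2: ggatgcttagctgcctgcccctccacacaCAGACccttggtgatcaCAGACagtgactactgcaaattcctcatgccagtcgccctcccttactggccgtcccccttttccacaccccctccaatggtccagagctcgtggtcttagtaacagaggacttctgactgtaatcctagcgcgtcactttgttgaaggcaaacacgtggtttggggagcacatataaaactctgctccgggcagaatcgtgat
Tgfbr2: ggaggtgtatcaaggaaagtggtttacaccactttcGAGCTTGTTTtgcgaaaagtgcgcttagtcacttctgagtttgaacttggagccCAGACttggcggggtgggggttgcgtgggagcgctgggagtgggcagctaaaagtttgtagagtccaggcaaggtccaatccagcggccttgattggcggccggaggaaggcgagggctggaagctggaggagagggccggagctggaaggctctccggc
Smad3: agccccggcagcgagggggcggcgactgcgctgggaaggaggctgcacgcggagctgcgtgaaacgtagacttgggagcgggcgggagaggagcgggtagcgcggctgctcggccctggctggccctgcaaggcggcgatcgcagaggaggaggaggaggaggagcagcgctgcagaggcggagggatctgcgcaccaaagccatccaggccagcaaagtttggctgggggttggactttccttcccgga
The Tgfb2 promoter held 2 SMAD boxes, which began 221 and 204 bases before the start, and no p53-family half-site. The Tgfbr2 promoter held 1 p53-family half-site, the first capital run, and 1 SMAD box 160 bases before the start. The Smad3 promoter held neither motif. Of 32536 distinct promoters of the same length, 42.2% held a SMAD box and 7.12% a p53-family half-site. The share of G and C was 53.6% for Tgfb2, 58.4% for Tgfbr2 and 69.2% for Smad3, where the median promoter had 52.4%. The Smad3 promoter held 22 CpG dinucleotides, above the upper quartile of 16, whereas Tgfbr2 with 12 and Tgfb2 with 8 lay between the quartiles of 2 and 16. A match describes the letters only and is no measure of binding.

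The ligand window stood below the other three in both lists. It held no p63 peak and 30 short H3K27ac peaks, whereas the receptor, effector and inhibitor windows held 1, 3 and 1 p63 peaks and between 72 and 89 H3K27ac peaks with wide peaks among them. The Poisson 95% intervals of the H3K27ac counts did not overlap between Tgfb2 and the other three, whereas those of the p63 counts did. This is no test between windows, because the intervals treat peaks as independent. The H3K27ac peaks were clustered to unlike degrees. Gaps under 1 kb numbered 44 of 88 at Smad7, 26 of 71 at Smad3 and 22 of 73 at Tgfbr2. At Tgfb2 it was 1 of 29. Joined at gaps of at most 1 kb, the peaks numbered 29 at Tgfb2, 52 at Tgfbr2, 46 at Smad3 and 45 at Smad7, a smaller difference. The windows were set against all 6402 non-overlapping windows of 400 kb that lay within the reach of the peaks on their chromosome. At least 1 p63 peak was found in 36.6% of these windows, and in 3 of the 4 windows of the genes. Having p63 was usual at their level of acetylation. Among windows with an H3K27ac count within 10% of the gene's, 82.4% held p63 for Tgfbr2, 82.7% for Smad3 and 86.1% for Smad7. For Tgfb2 it was 44.7%. Because the windows are few and without replicates, these places among all windows are descriptions.

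**Figure D1:**
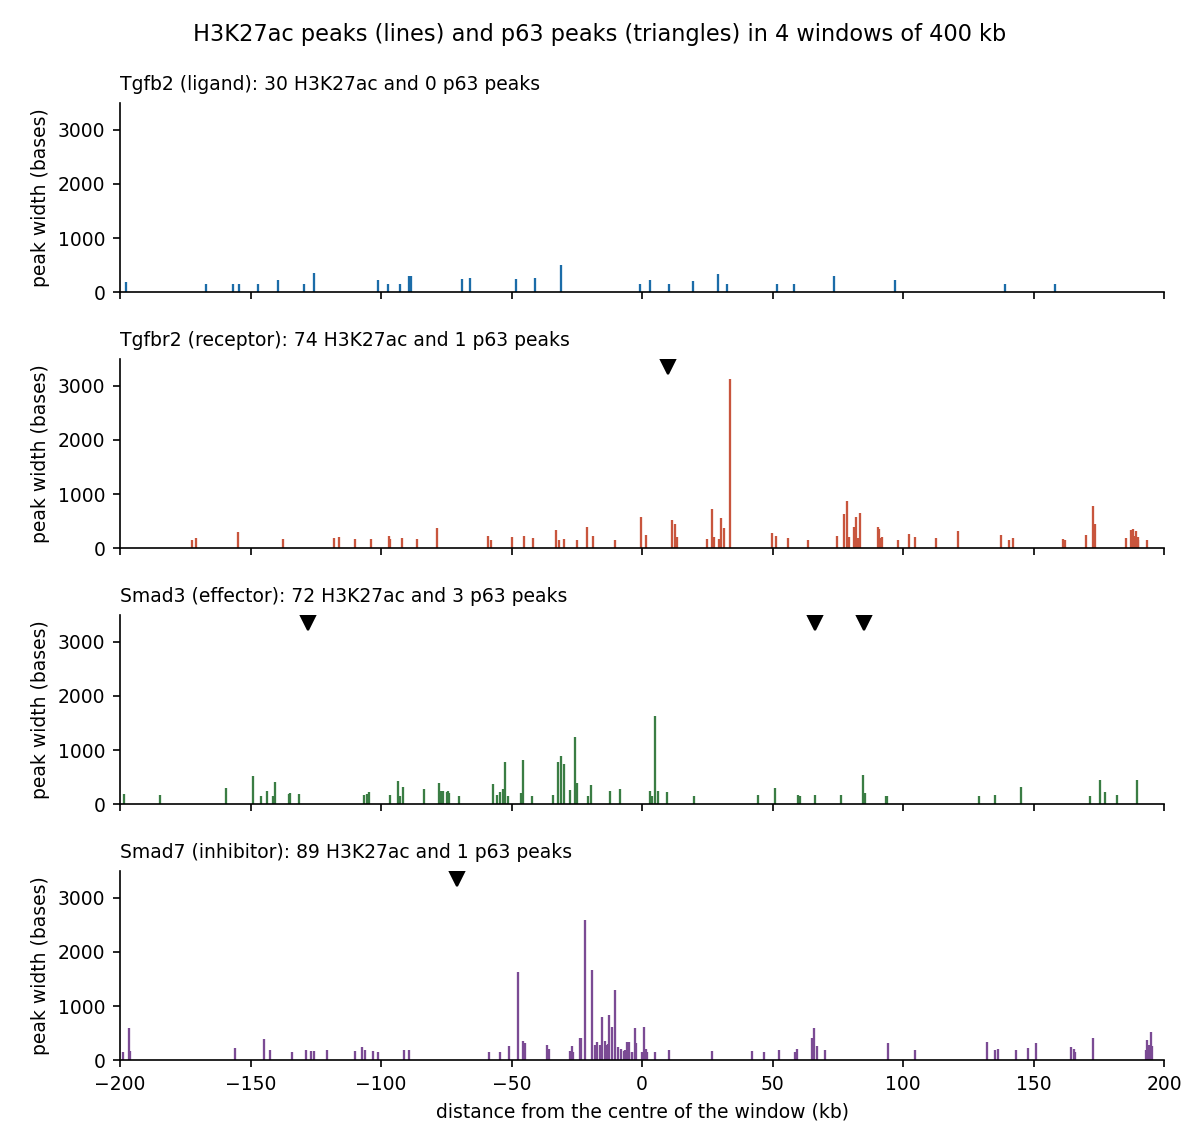
H3K27ac peaks (vertical lines, height is the peak width in bases) and p63 peaks (black triangles) in the 4 windows, by distance from the window's centre in kb. The Tgfb2 window has no p63 peak and no H3K27ac peak over 506 bases, while the tallest line, of 3128 bases, is in the Tgfbr2 window and the densest cluster is in the Smad7 window.

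The Tgfb2 window, that of the secreted ligand, held 0 p63 peaks (exact Poisson 95% interval 0 to 3.69, for counting error only). Its 30 H3K27ac peaks (interval 20.2 to 42.8) covered 6520 bases, or 1.63% of the window. Acetylation was therefore close to that of an ordinary window, since the median window held 22 H3K27ac peaks (quartiles 10 and 41) covering 4705 bases. Fewer H3K27ac peaks were found in 61% of all windows, and more in 37.6%. The widest peak, at chr1:188468903-188469408, measured 506 bases. The next widest, at chr1:188374324-188374672 and chr1:188528976-188529309, measured 349 and 334 bases. No peak reached 1000 bases, whereas 25.7% of all windows held a peak of at least that width. The peaks were also scattered: 28 of them stood alone, with no other H3K27ac peak within 1 kb, and the median gap between neighbours was 9032 bases. The only pair at most 1 kb apart spanned chr1:188410420-188411641.

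p63 was far from Tgfb2 on both sides. The nearest p63 peak to the left was chr1:187692601-187692775, 607 kb before the window, and the nearest to the right was chr1:191183679-191183923, 2484 kb after it. The stretch between them, chr1:187692776-191183678, measured 3.49 Mb, and 2.73% of the 4110 distances between neighbouring p63 peaks were longer (median 234 kb). It was not empty of acetylation, as it held 207 H3K27ac peaks, or 59.3 per Mb.

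The Tgfbr2 window, that of the type II receptor, held 1 p63 peak (interval 0.0253 to 5.57) and 74 H3K27ac peaks (interval 58.1 to 92.9). The H3K27ac peaks covered 23717 bases, or 5.93% of the window, and only 5.06% of all windows had more bases covered. One peak stood out by width: chr9:116081975-116085102 measured 3128 bases, ranked 117 by width in the whole list, and held 13.2% of the covered bases of the window. It was part of a domain of 4 peaks joined at gaps of at most 1 kb, chr9:116079279-116085102, of 5824 bases. The next widest peaks, chr9:116128161-116129035 of 875 bases and chr9:116222322-116223096 of 775 bases, lay 78.6 and 173 kb right of the window's centre. Of the 74 H3K27ac peaks of the Tgfbr2 window, 1 thus reached 1000 bases and 10 reached 500 bases.

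The p63 peak of the Tgfbr2 window lay at chr9:116059812-116060071. Its width of 260 bases was above that of 89.1% of p63 peaks. It shared no base with H3K27ac. The nearest H3K27ac peak, chr9:116061404-116061933 of 530 bases, began 1332 bases to its right, and the nearest on the left ended 8298 bases away. The widest H3K27ac peak of the window was 21.9 kb from it. This p63 peak was isolated, with its nearest p63 neighbour at 871 kb, and 5.64% of p63 peaks were farther from theirs (median 83.8 kb).

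The Smad3 window, that of the receptor-activated effector, was the one with several p63 peaks. It held 3 (interval 0.619 to 8.77), a number reached by 6.76% of all windows. Its 72 H3K27ac peaks (interval 56.3 to 90.7) covered 22318 bases, or 5.58% of the window, so that its acetylation was close to that of the Tgfbr2 window while its p63 count was higher. With intervals as wide as these, 3 peaks and 1 peak are not told apart. The 3 widest H3K27ac peaks were chr9:63604191-63605822 of 1632 bases, chr9:63573601-63574837 of 1237 bases and chr9:63568633-63569524 of 892 bases. They lay near the centre of the window, at -30.9 to 5.01 kb from it. The window had 14 domains of joined peaks, and these held 65.7% of its covered bases. The widest domain, chr9:63544547-63548743, joined 5 peaks over 4197 bases.

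Each p63 peak of the Smad3 window had a different setting. The first, chr9:63472121-63472269, was 149 bases wide and lay 128 kb left of the centre, with an H3K27ac peak of 182 bases ending 3599 bases before it and none for 21150 bases after it. The second, chr9:63666080-63666199, was 120 bases wide, the smallest width in the p63 list, and an H3K27ac peak of 167 bases began 64 bases after it. The third, chr9:63684782-63685091, was 310 bases wide, and 3.49% of p63 peaks were wider. It lay between 2 H3K27ac peaks, one of 536 bases that ended 9 bases before it and one of 209 bases that began 135 bases after it. The third peak therefore filled most of the gap inside a domain of 1199 bases, chr9:63684237-63685435, without sharing a base with either side. The last 2 were 18.8 kb apart, and the first was 194 kb from the second. All 3 lay away from the widest H3K27ac peaks of the window; the closest distance from the peak of 1632 bases to p63 was 60.3 kb.

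**Figure D2:**
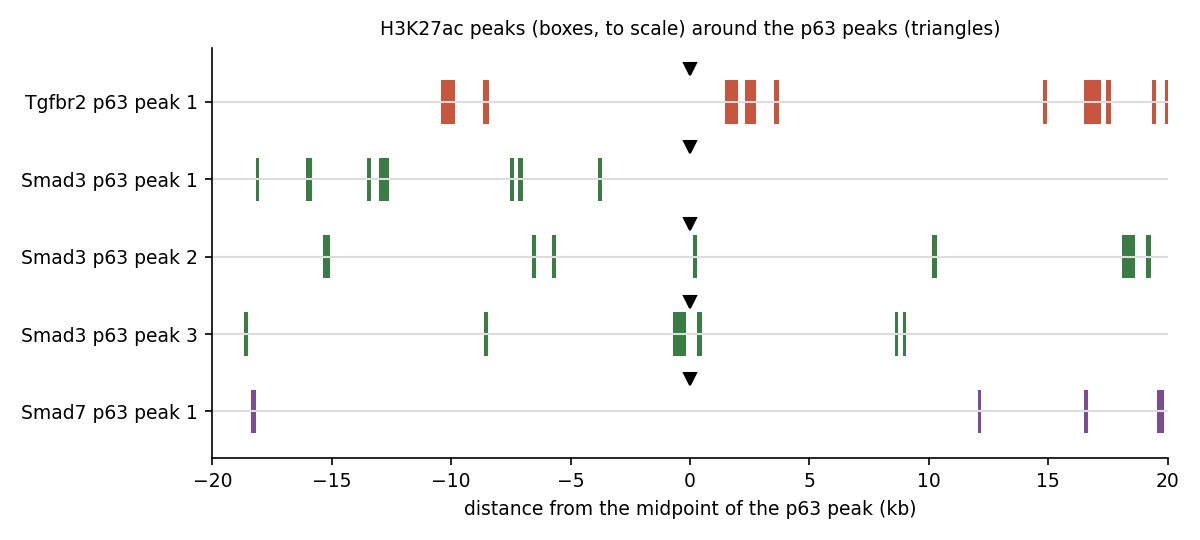
H3K27ac peaks (boxes, drawn to scale) within 20 kb of the midpoints of the 5 p63 peaks (black triangles at 0). Only p63 peaks 2 and 3 of the Smad3 window have a box within 1 kb, and the p63 peak of the Smad7 window has none within 5 kb.

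The Smad7 window, that of the inhibitory Smad, carried the most acetylation of the 4 by number of peaks and by bases covered. It held 89 H3K27ac peaks (interval 71.5 to 109.5) over 30059 bases, or 7.51% of the window, and 2.34% of all windows held more H3K27ac peaks. Acetylation was concentrated just left of the centre. The 20 kb of chr18:75530001-75550000 held 24 peaks and 33.9% of the covered bases of the window. Among the 74719 stretches of 20 kb in the genome with any H3K27ac, 0.0964% had more bases covered. For the densest 20 kb of the Tgfbr2, Smad3 and Tgfb2 windows, 0.7%, 1.02% and 17.5% had more. Each stretch was picked as the densest of its window, which by itself favours a high place. The corresponding densest 20 kb held 22.5% of the covered bases in the Tgfbr2 window, 20.7% in the Smad3 window and 14% in the Tgfb2 window.

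Joined at gaps of at most 1 kb, 26 H3K27ac peaks of the Smad7 window formed 1 domain, chr18:75525945-75548022, of 22078 bases, of which 61% was covered. By span it ranked 11 among 24666 domains of 2 or more peaks, whose median span was 1217 bases and whose widest was 32525. The widest peaks of the window were chr18:75526997-75529589 of 2593 bases and chr18:75529855-75531518 of 1664 bases, both inside this domain, and chr18:75501511-75503139 of 1629 bases, outside it. The domain depended on the joining distance: with gaps of at most 500 bases the widest domain of the window measured 7154 bases, and with gaps of at most 12500 bases it measured 69378 bases.

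The single p63 peak of the Smad7 window (interval 0.0253 to 5.57) lay apart from all of this acetylation. At chr18:75479088-75479270 and 183 bases wide, it was near the p63 median width of 181 bases. The nearest H3K27ac peaks were 18097 bases to its left and 11944 bases to its right, so that no H3K27ac peak lay within 5 kb. The wide domain of the window was 46674 bases from it. The nearest other p63 peak, chr18:75858069-75858266, was 379 kb away, outside the window, and shared bases with H3K27ac.

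**Figure D3:**
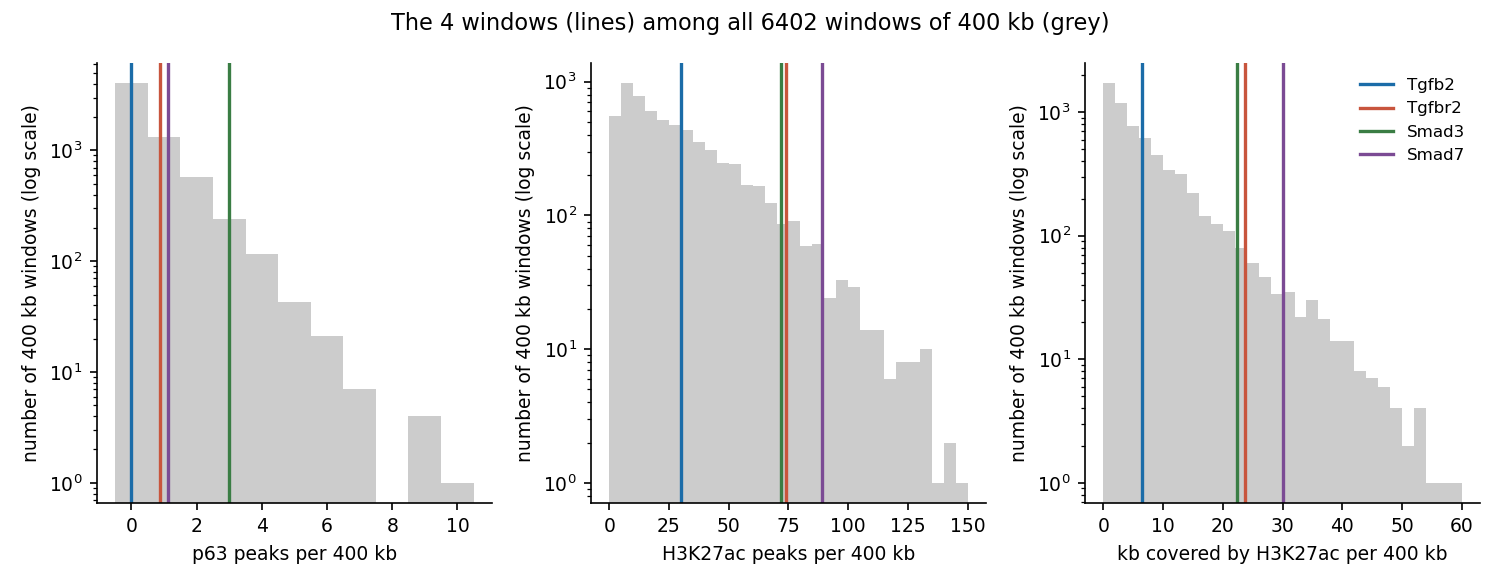
Distribution of p63 peaks, H3K27ac peaks and kb covered by H3K27ac over all 6402 windows of 400 kb (grey bars, number of windows on a log axis), with the 4 genes as coloured lines (Tgfbr2 and Smad7, both at 1 p63 peak, are drawn slightly apart). Tgfb2 stands among the common values at 30 H3K27ac peaks, whereas Smad3 at 72, Tgfbr2 at 74 and Smad7 at 89 stand in the upper tail.

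Across the 4 windows, no p63 peak shared a base with H3K27ac. Some were close to it all the same: at Smad3, 2 p63 peaks had H3K27ac only 64 and 9 bases away. Of the 5 p63 peaks, 0 shared a base with an H3K27ac peak (Wilson 95% interval 0 to 43.4%), beside 34.8% of all p63 peaks. The list's share lies inside that interval, so a difference was not detectable with 5 peaks. Within 1 kb of H3K27ac lay 2 of the 5 (40%, interval 11.8 to 76.9%), both in the Smad3 window, beside 68.4% of all p63 peaks, again inside the interval. The intervals treat peaks as independent and cover counting error only. The distances from p63 to the nearest H3K27ac peak were 3599, 64 and 9 bases at Smad3 in genome order, 1332 bases at Tgfbr2 and 11944 bases at Smad7.

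The number of p63 peaks was read against acetylation, because p63 peaks were more frequent in windows with more H3K27ac peaks. In the 1781 windows with 20 to 39 H3K27ac peaks, the class of Tgfb2, 57.1% had no p63 peak and the mean was 0.595. In the 466 windows with 60 to 79, the class of Tgfbr2 and Smad3, 18.7% had none, 25.1% had 3 or more and the mean was 1.74. In the 177 windows with 80 to 99, the class of Smad7, the mean was 2.19 and 14.7% had none. Set beside windows of like acetylation, the absence of p63 at Tgfb2 was therefore common, the 3 peaks at Smad3 were above the mean, and the single peaks at Tgfbr2 and Smad7 were below it. None of these counts differs from its class mean by more than its Poisson interval.

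**Figure D4:**
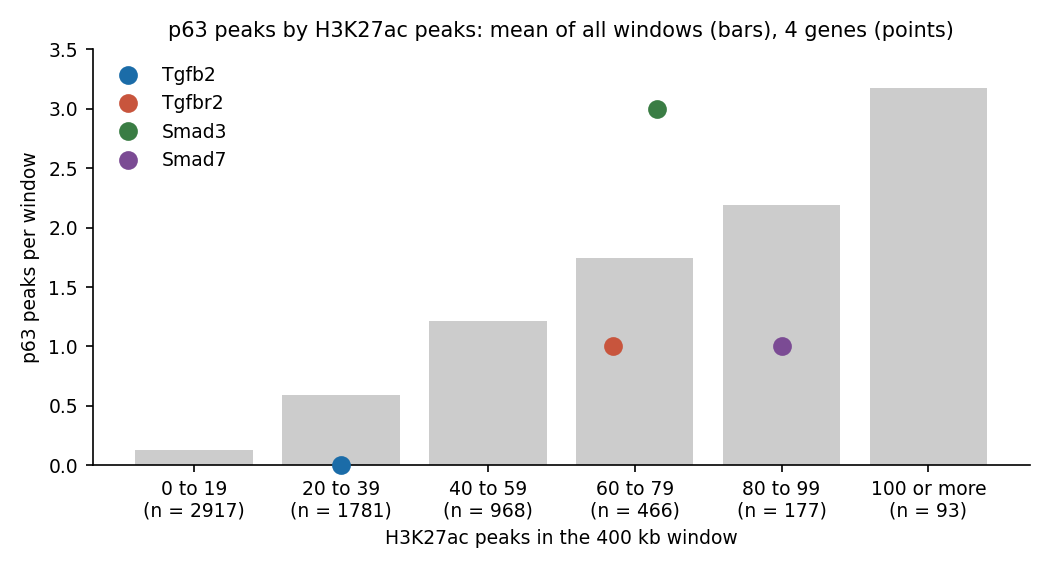
p63 peaks per window of 400 kb by the number of H3K27ac peaks in it: the mean of all windows of a class (grey bars, n is the number of windows) and the 4 genes (points). The Smad3 point at 3 lies above its bar of 1.74, and the other 3 points lie below theirs.

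Widths of the H3K27ac peaks were similar at their medians and differed in their extremes. The median width was 197 bases at Tgfb2 (quartiles 151 and 259), 212 at Tgfbr2 (177 and 343), 223 at Smad3 (169 and 318) and 212 at Smad7 (172 and 333), beside 191 in the whole list. Each median lay within the quartiles of the other windows. Peaks of at least 1000 bases numbered 0 at Tgfb2, 1 at Tgfbr2, 2 at Smad3 and 4 at Smad7, or 7 of 265 together (2.64%), beside 1.91% of the list. Peaks of exactly 150 bases, the smallest width in the list, made up 20% at Tgfb2, 6.76% at Tgfbr2, 13.9% at Smad3 and 8.99% at Smad7, beside 21.7% of the list. The mean width was 217 bases at Tgfb2 and from 310 (Smad3) to 338 bases (Smad7) in the other three.

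**Figure D5:**
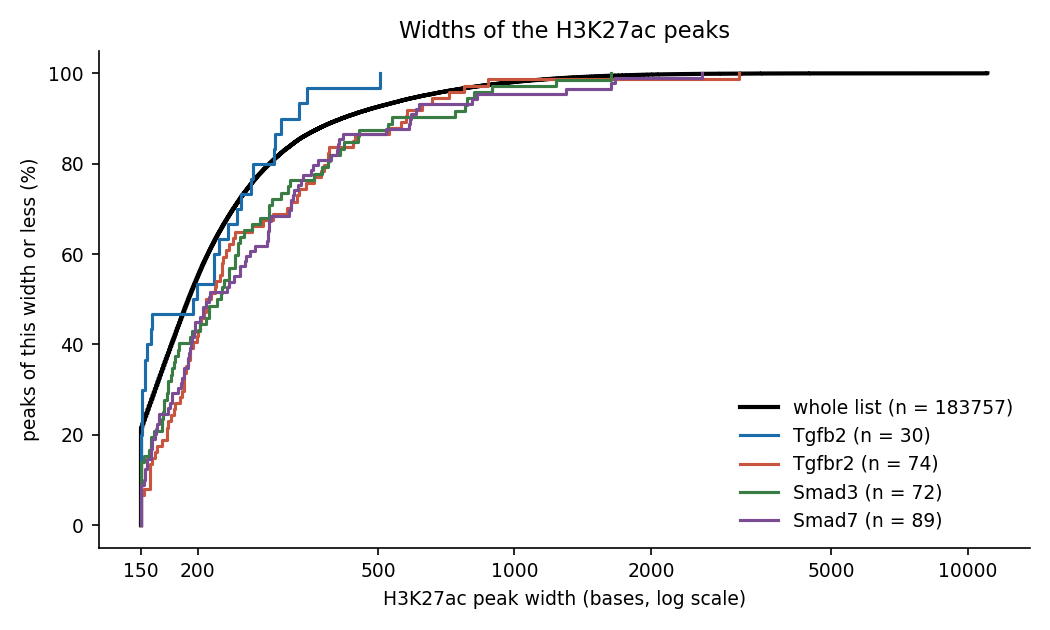
Cumulative share of H3K27ac peaks (%) by width (bases, log axis) in each of the 4 windows and in the whole list (black). The Tgfb2 curve ends at 506 bases, and the curves of the other 3 genes run to the right of the list's curve over most widths.

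The distribution along the windows also differed. In bins of 20 kb, H3K27ac peaks were found in 17 bins at Tgfb2, 19 at Tgfbr2, 17 at Smad3 and 18 at Smad7 of 20. The longest gap between H3K27ac peaks was 42 kb at Tgfb2 (chr1:188597000-188639019), 40.2 kb at Smad7 (chr18:75353891-75394104), 35.2 kb at Smad3 (chr9:63693997-63729177) and 19.4 kb at Tgfbr2 (chr9:115971490-115990885). Long gaps were thus present in the most acetylated window as well as in the least. Gaps under 1 kb numbered 1 of 29 at Tgfb2, 22 of 73 at Tgfbr2, 26 of 71 at Smad3 and 44 of 88 at Smad7. Domains of joined peaks held 9.22% of the covered bases at Tgfb2, 61.2% at Tgfbr2, 65.7% at Smad3 and 71.5% at Smad7.

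The density of H3K27ac peaks fell at all 4 genes as the span around the window's centre grew. Within 100 kb of the centre there were 230 H3K27ac peaks per Mb at Tgfbr2, 245 at Smad3 and 285 at Smad7, and within 1000 kb there were 108, 124 and 148. At Tgfb2 it was 95 within 100 kb and 64.5 within 1000 kb. The neighbouring protein-coding genes, by their order in the RefSeq table of GRCm38.p6, are Lyplal1 and Rrp15 for Tgfb2, Gadl1 and Rbms3 for Tgfbr2, Aagab and Smad6 for Smad3, and Dym and Ctif for Smad7. Smad6 is an inhibitory Smad like Smad7. Where a gene begins and ends within its window was not taken from an mm9 annotation, so peaks are given by position and no peak is assigned to a gene, a promoter or an intron. The rest of the pathway (ligands, type I receptors and other Smads) was not analysed here for the same reason.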

How the data were processed

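The submitters' processing notes name the aligner Bowtie 1.1.1, the peak caller MACS2 2.1.0 and the build mm9. Their settings, the peak threshold and the handling of duplicates: not given in the sources used here. As deposited by the authors, the data are 2 peak lists of 3 columns (chromosome, start, end) with no score, 1 ChIP against 1 input each. Printed starts count from 1.

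From these lists, peaks were placed in windows by midpoint, overlap needed 1 shared base, and distances count the bases between peaks. H3K27ac peaks at most 1000 bases apart were joined into domains. Counts carry exact Poisson and shares Wilson 95% intervals, for counting error only. All windows of 400 kb on a grid from position 1 served as background, in place of random windows. Named by rule were every p63 peak and, per window, the 3 widest H3K27ac peaks and the widest domain. The genes, windows and rules were chosen with earlier results of these data known; the 20 kb bins, acetylation classes, p63 stretches, motifs and larger spans were added after the lists were seen. The overlap, joining and window counts were tested on simulated data. Alternatives covered window place and size, peak width, overlap and joining distance. The planned pathway list needs an mm9 annotation and was not run. The software was scipy 1.17.1, numpy 2.4.6, pandas 2.3.3 and matplotlib 3.10.9 on Python 3.11.15.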

Additional observations from a re-analysis of the deposited data

How the results depend on the processing

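Of 94 alternatives, 74 left the value within 1.5 times the count or inside the interval of the share, and 20 moved it. This tally is no measure of robustness, because some alternatives could move a value in 1 direction only or not at all. The alternatives for overlap were all stricter than 1 shared base, so a share of 0 had to stay 0. Keeping the wider 50% of a list could not raise a count. No paired analysis was possible because there was 1 library per group. The Tgfb2 window had no p63 peak under any of its alternatives, none of which reached the nearest p63 peak, 607 kb outside the window. p63 counts moved from 1 to 2 at Tgfbr2 and Smad7 for the central 200 kb scaled to 400 kb, from 1 to 0.5 at Tgfbr2 for 800 kb scaled to 400 kb, and from 3 to 1 at Smad3 with the wider 50% of p63 peaks. With the wider 50% of H3K27ac peaks, their number was 16 at Tgfb2, 47 at Tgfbr2, 43 at Smad3 and 56 at Smad7. Joined peaks numbered 46 at Smad3 and 45 at Smad7, fewer than the 52 at Tgfbr2, so Smad7 was then no longer the highest of the 4, whereas Tgfb2, with 29 joined peaks, was the lowest of the 4 under every alternative for the number of H3K27ac peaks. Over 800 kb scaled to 400 kb, covered bases were 15404 at Tgfbr2 and 20011 at Smad7. Within 5 kb of H3K27ac lay 80% of the 5 p63 peaks (Wilson 95% interval 37.6 to 96.4%), beside 85.1% of the whole list. The widest domain at gaps of at most 12500 bases spanned 41725 bases at Tgfb2, 94217 at Tgfbr2, 77157 at Smad3 and 69378 at Smad7, so Smad7 was no longer the widest of the 4. At gaps of at most 500 bases it spanned 506, 3825 and 7154 bases at Tgfb2, Tgfbr2 and Smad7. Depth limits the lists by an unknown amount, and acetylation or p63 below the calling threshold would not appear in them.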

Other observations

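Within 1 Mb of the centre of the Smad3 window there were 10 p63 peaks, and none of them shared a base with H3K27ac (0 of 10, Wilson 95% interval 0 to 27.8%), beside 34.8% of the whole list. The 10 include the 3 p63 peaks of the Smad3 window, already given above as sharing no base, so this is not a separate result. Within 1 kb of an H3K27ac peak lay 5 of the 10, beside 68.4% of the whole list, and the distances ran from 9 to 6641 bases with a median of 1864. Among all 3950 runs of 10 neighbouring p63 peaks on a chromosome, 119 (3.01%) had no overlap with H3K27ac, and the mean was 3.5 overlapping peaks. Smad3 was the extreme of the 4 spans examined: in the same span 4 of 8 p63 peaks overlapped H3K27ac around Smad7 (50%, interval 21.5 to 78.5%), 1 of 2 around Tgfbr2 and 0 of 1 around Tgfb2, where 65.2% of single p63 peaks in the list had no overlap. The span of 2 Mb was chosen after the data were seen, and neighbouring peaks are not independent. The runs share peaks with one another and were not matched for length or acetylation. These values are a description and no test of Smad3.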
